A study of Mus musculus with 6 samples.

Results

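The PDGF ligands and receptors were described here as a gene family, taken from the deposited expression table by gene symbol and without any filter on expression. All 6 of the genes looked for were found, Pdgfa, Pdgfb, Pdgfc, Pdgfd, Pdgfra and Pdgfrb, among 45038 genes in the table. The table holds FPKM, the number of sequenced fragments per kilobase of transcript and per mega (M) of mapped fragments, in 6 mouse libraries. The MI group (n = 3) came from infarct tissue 3 weeks after ligation of the left anterior descending coronary artery, and the Normal group (n = 3) from normal left ventricle labelled as being without that surgery. All animals were C57BL/6 mice with Tie2-Cre and Rosa-LSL-tdTomato, given as 6 to 8 weeks old in the surgery protocol. In both groups, cells carrying tdTomato and lacking F4/80, a macrophage antigen, were sorted from a collagenase digest. Besides endothelium, the Tie2 promoter also drives Cre in some blood cells, so the sort was not limited by design to endothelium. The titles number the libraries Ms1535, Ms1537 and Ms1608 in each group, and values given as 3 numbers follow that order. How many mice stood behind a library was not given in the sources used here, so the spread between libraries may be partly technical.

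Platelet-derived growth factors are secreted dimers that act through a pair of receptor tyrosine kinases. PDGF-A and PDGF-B are released as active ligands, whereas PDGF-C and PDGF-D carry an extra CUB domain that a protease has to remove. PDGFR-alpha binds PDGF-A, PDGF-B and PDGF-C chains and is used as a marker of fibroblasts, and PDGFR-beta binds PDGF-B and PDGF-D and is used as a marker of pericytes, fibroblasts and smooth muscle. In vessels, endothelial cells make PDGF-B, which recruits pericytes that carry PDGFR-beta.

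Marker levels of the libraries are given first. In Normal Ms1608 the 15 pan-endothelial markers summed to 13.1 FPKM, against 288 to 1343 in the other 5 libraries, and Kdr, the main VEGF receptor of endothelium, stood at 0.486 FPKM against 11.9 to 73.9. The 10 pan-leukocyte markers summed to 3865 FPKM in Normal Ms1608, 281 and 412 in Normal Ms1535 and Ms1537, and 2057 to 2403 FPKM in MI. The 15 fibroblast markers summed to 1281 to 6448 FPKM (MI) against 224 to 1172 (Normal). The 15 pericyte and smooth muscle markers summed to 30.1 to 31.8 FPKM in MI, 42.2 and 43.1 in Normal Ms1535 and Ms1537, and 1.38 in Normal Ms1608. Cardiomyocyte markers (10 genes) summed to 150 to 1026 FPKM (MI) against 9.20 to 818 (Normal). The part of this make-up in the differences below was not tested, and in sorted bulk cells fewer cells of a type and less RNA per cell cannot be told apart. Of 15 mitochondrial genes, which every cell uses, 0 to 12 were listed at 0 per library. mt-Rnr2, mt-Cytb and mt-Nd1 were listed at 0 in Normal Ms1535, Normal Ms1537 and MI Ms1608 and stood at 1504 to 14741 FPKM in the other 3, so a 0 in this table can be a failed estimate. No member was listed at 0. Depth, read from the steps of low values, came to 34.7 to 47.6 M fragments per library.

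On GRCm38, Pdgfa spans chr5:138976014-138997370 (minus strand), Pdgfb chr15:79995874-80014977 (minus), Pdgfc chr3:81036416-81214040 (plus), Pdgfd chr9:6168584-6378850 (plus) and Pdgfra chr5:75152292-75198215 (plus). All 6 are annotated as protein-coding, and each value covers the whole gene, with 2 to 9 annotated transcripts. RefSeq start sites on GRCm38.p6 were found for 4 of the 6 members. The 250 bases before the start are shown for Pdgfra, a receptor with higher values in MI, and for Pdgfd, a ligand without them. Both windows lie outside annotated exons.
Pdgfra, chr5:75152001-75152250, plus strand: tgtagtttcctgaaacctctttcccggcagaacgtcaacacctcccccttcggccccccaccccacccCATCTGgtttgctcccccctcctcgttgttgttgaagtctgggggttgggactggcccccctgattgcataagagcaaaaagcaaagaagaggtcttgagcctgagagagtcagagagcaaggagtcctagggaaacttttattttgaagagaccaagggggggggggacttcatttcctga
Pdgfd, chr9:6168236-6168485, plus strand: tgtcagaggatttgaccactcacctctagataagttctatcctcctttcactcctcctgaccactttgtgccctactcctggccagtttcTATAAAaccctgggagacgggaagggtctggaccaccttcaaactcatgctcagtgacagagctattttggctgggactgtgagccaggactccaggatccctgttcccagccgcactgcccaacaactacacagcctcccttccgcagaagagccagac
Capitals mark matches, on either strand, to a GC box (GGGCGG), an AP-1 site (TGANTCA), an E-box (CANNTG) or a TATA box (TATAAA). Pdgfra held 1 E-box match, which 66.2% of 32851 RefSeq windows of this length also hold, and Pdgfd held 1 TATA box match, found in 12.4%. GC boxes occurred in 32.7% of all windows and AP-1 letters in 6.75%, and neither occurred in these windows. A match describes the letters only.

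The comparison of MI with Normal asks how PDGF gene levels in the sorted cells differ between infarct and normal muscle. As deposited, Pdgfa and both receptors lay higher in each MI library than in each Normal library, while Pdgfb, Pdgfc and Pdgfd overlapped between the groups. For Pdgfa and both receptors the group means of log2(FPKM + 1) differed by 1.83 to 3.26, and single libraries could lie much closer. By limma on log2(FPKM + 1), 0 of the 6 members passed an adjusted p of 0.05, and 3 had an unadjusted p under 0.05, all higher in MI and 0 lower. That number was 1 after each of 3 scalings between libraries, and 1 without Normal Ms1608, Normal Ms1537, MI Ms1535 or MI Ms1537, settings whose shares over all genes stand beside the pathway list. The 1 member was Pdgfa each time. Under the other alternatives the number was 2 or 3, and shares over all genes are not given for each of those. Over all 30727 genes above 0 in at least 1 library, 0.00325% passed the adjusted threshold. The only gene past it was Gm24890, a predicted gene outside the family, named because the count is 1. An unadjusted p under 0.05 with higher values in MI was found for 6.42% of all genes tested, and for 15.4% of the 10168 genes at 1 FPKM or more in at least 3 libraries, and with lower values for 0.625% of all genes tested. Groups lay apart with MI above in 3 of 6 members, against 12.6% of all genes and 25.0% of those 10168 genes. Leaving out a Normal library cannot undo such a separation, so Pdgfa, Pdgfra and Pdgfrb necessarily stayed apart without Normal Ms1608. In that comparison 24.5% of all genes and 52.6% of the 10168 genes lay apart with MI above. The median of the 10168 genes was itself 0.78 log2 units higher in MI, which came down to 0.08, 0.02 and 0.04 after upper-quartile, median-ratio and quantile scaling.

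**Figure D1:**
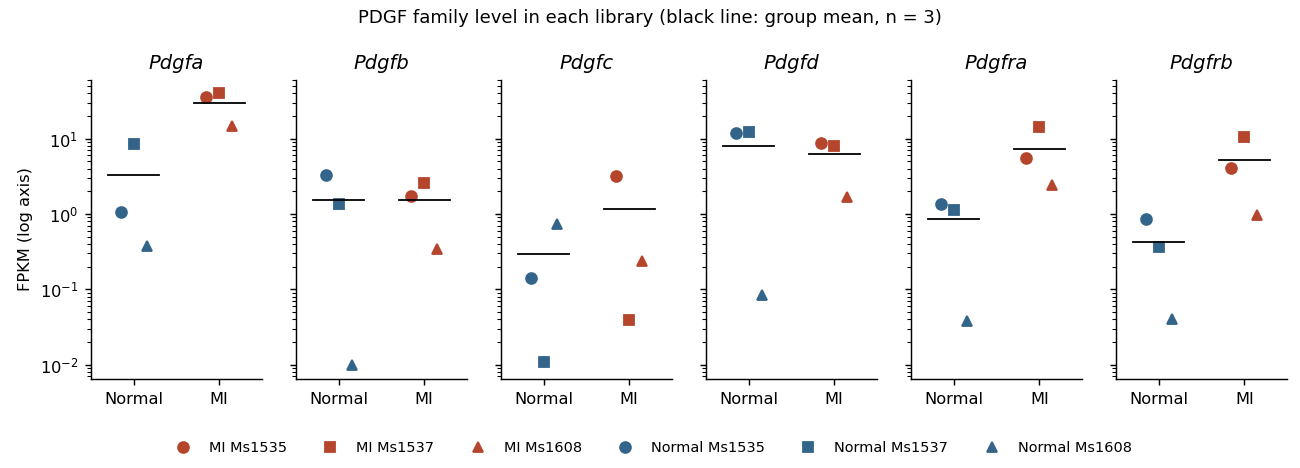
FPKM of each PDGF gene on a log axis, with 1 point per library (red for MI, blue for Normal, shape for the number in the title) and a black line at the group mean (n = 3). Pdgfa, Pdgfra and Pdgfrb have all MI points above all Normal points, and Normal Ms1608 is the lowest library for every gene except Pdgfc.

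Pdgfa, which encodes the chain that pairs with PDGFR-alpha, had the highest ligand level in MI. It stood at 35.5, 40.3 and 14.9 FPKM in the MI libraries and at 1.08, 8.46 and 0.376 in the Normal libraries. The groups did not overlap, although Normal Ms1537 was well above the other Normal libraries. The MI mean was 30.2 ± 13.5 FPKM and the Normal mean 3.30 ± 4.48 (SD, n = 3 per group), which gave a log2 difference of 3.26 (SE 0.85, limma unadjusted p = 0.00803, adjusted p = 0.649). Without Normal Ms1608 the difference was 2.70 (SE 0.80). After upper-quartile scaling it was 2.46, and the groups then touched, with MI Ms1608 at 14.65 and Normal Ms1537 at 14.66 scaled FPKM. They stayed apart after median-ratio and quantile scaling, with differences of 2.46 and 2.31. After upper-quartile, median-ratio and quantile scaling the groups lay apart with MI above in 4.37%, 4.44% and 4.43% of all genes tested and in 7.49%, 7.82% and 6.64% of the 10168 genes.

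Pdgfb, the ligand of PDGFR-beta that endothelium is known to make, was at 1.73, 2.58 and 0.347 FPKM in the MI libraries. In the Normal libraries it was at 3.25, 1.37 and 0.00972 FPKM, the last being about 1 fragment (exact Poisson 95% interval 0.000248 to 0.0545 FPKM at the depth read from the table, for counting error only, with amplified RNA counted as if independent). The groups overlapped, and the library numbered Ms1608 was the lowest in each. The log2 difference was 0.12 (95% interval -1.59 to 1.84, limma adjusted p = 0.952), so that a difference of more than 1 log2 unit in either direction remained within the interval. It was -0.43 without Normal Ms1608 and -0.48, -0.39 and -0.56 after upper-quartile, median-ratio and quantile scaling.

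Pdgfd, the other ligand of PDGFR-beta, had its highest levels in Normal Ms1535 and Ms1537. It was at 11.7 and 12.3 FPKM in Normal Ms1535 and Ms1537, at 0.0834 in Normal Ms1608, and the MI libraries held 8.84, 8.00 and 1.68. The log2 difference with all 6 libraries was 0.13 (95% interval -2.64 to 2.90, limma adjusted p = 0.980). Without Normal Ms1608 it turned to -1.07 (SE 0.66, limma adjusted p = 0.526), and the 3 MI libraries then lay below both remaining Normal libraries. In that comparison MI lay below for 5.78% of all genes tested and 1.75% of the 10168 genes. Within-library rank, which restates the same FPKM, put Pdgfd at percentiles 92.5 and 93.6 of the genes tested in Normal Ms1535 and Ms1537 and at 84.1, 81.9 and 71.2 in MI. In Normal Ms1608 it stood at percentile 57.7, below each MI library, so the ranks of the groups overlapped too.

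Pdgfc, the CUB-domain ligand of PDGFR-alpha, was scarce and uneven. It was at 3.23 FPKM in MI Ms1535, 0.0385 in MI Ms1537 and 0.240 in MI Ms1608. In the Normal libraries it was at 0.141, 0.0108 and 0.736 FPKM. The value in Normal Ms1537 corresponded to about 1 fragment and that in MI Ms1537 to about 5. Here Normal Ms1608 was the highest Normal library, in contrast to the other 5 members. The log2 difference was 0.48 (95% interval -1.03 to 1.99, limma adjusted p = 0.715), and it was -0.15 without MI Ms1535.

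The order of the ligands differed between the groups' libraries when their FPKM were summed, a comparison in which a scaling factor of the library cancels. Pdgfa made up 72.0%, 79.1% and 86.8% of the ligand sum in MI, and 6.64%, 38.3% and 31.2% in Normal. Pdgfd made up 17.9%, 15.7% and 9.82% in MI, and 72.4% and 55.5% in Normal Ms1535 and Ms1537. In Normal Ms1608 the leading ligand was Pdgfc, at 61.1% of a sum of only 1.205 FPKM, against sums of 16.2 to 50.9 FPKM elsewhere. Pdgfb contributed at most 6.19% outside Normal Ms1535, where it reached 20.1%. These shares were computed after the levels had been seen and were not tested.

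**Figure D2:**
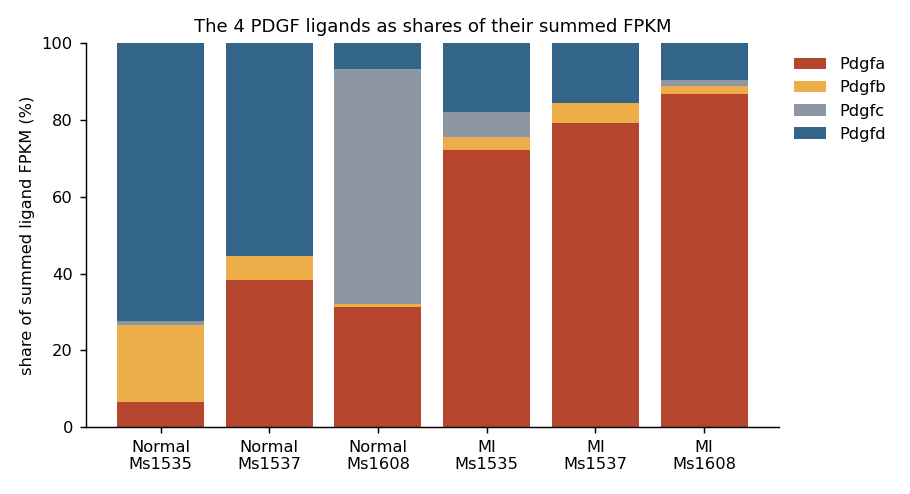
Shares (%) of Pdgfa, Pdgfb, Pdgfc and Pdgfd in their summed FPKM, with 1 stacked bar per library. Pdgfa fills 72.0% to 86.8% of the bar in MI, Pdgfd leads in Normal Ms1535 and Ms1537, and Pdgfc leads in Normal Ms1608.

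Pdgfra, the alpha receptor, was at 5.61, 14.2 and 2.43 FPKM in the MI libraries and at 1.37, 1.14 and 0.0375 in the Normal libraries. The groups did not overlap, and MI Ms1537 was the highest library. MI Ms1608 and Normal Ms1535 came closest to each other. The log2 difference was 2.01 (SE 0.70, limma unadjusted p = 0.0268, adjusted p = 0.649). Without Normal Ms1608 it was 1.64, without MI Ms1537 1.45, and after the 3 scalings 1.31 to 1.38. The groups stayed apart under all 3 scalings, with the shares of all genes as given for Pdgfa.

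Pdgfrb, the beta receptor, whose gene lies on chromosome 18, followed Pdgfra closely. It was at 4.10, 10.6 and 0.975 FPKM in the MI libraries and at 0.854, 0.361 and 0.0407 in the Normal libraries. MI Ms1608 and Normal Ms1535 were close to each other. The log2 difference was 1.83 (SE 0.73, limma unadjusted p = 0.0460, adjusted p = 0.649). It was 1.62 without Normal Ms1608, 1.20 without MI Ms1537 and 1.23 to 1.29 after the 3 scalings, and under each scaling the groups overlapped. Across the 6 libraries, log2(FPKM + 1) of the receptors correlated at 0.98 (Pearson, n = 6 libraries from both groups, given as a description). Pdgfra was 0.922 to 3.14 times Pdgfrb in FPKM, and in 5 of 6 libraries it was the higher receptor, the exception being Normal Ms1608.

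**Figure D3:**
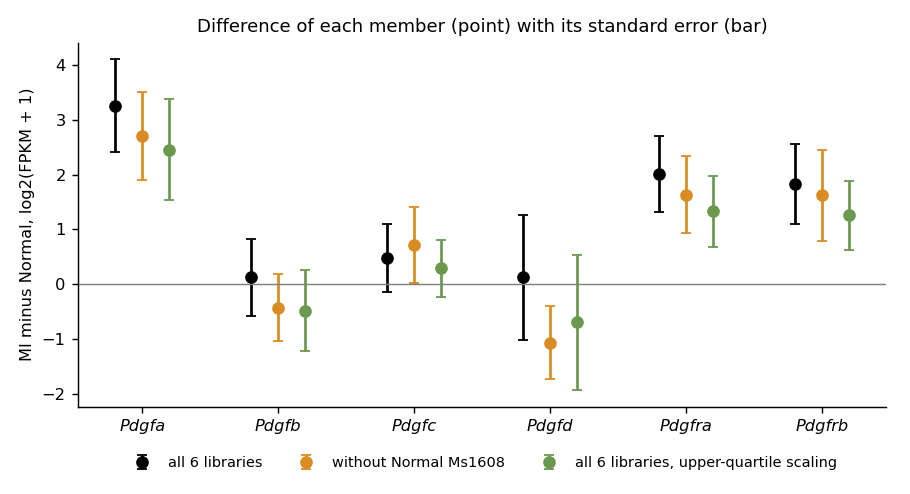
MI minus Normal in log2(FPKM + 1) for each member, with bars of 1 standard error, for all 6 libraries, without Normal Ms1608 and after upper-quartile scaling. Pdgfa, Pdgfra and Pdgfrb are above 0 in all 3 versions, and Pdgfb and Pdgfd turn from 0.12 and 0.13 to below 0.

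Differences between members within a library were compared between the groups by two-sided exact permutation tests. There were 10 such comparisons, and with 3 libraries against 3 the smallest p is 0.1, so none could pass 0.05. Pdgfb minus Pdgfrb, the ligand against its receptor, was -0.90, -1.70 and -0.55 log2 units in MI and 1.20, 0.80 and -0.04 in Normal. The groups did not overlap (difference -1.70, exact permutation p = 0.1, adjusted p = 0.4), and the difference was -2.05 without Normal Ms1608. In Normal Ms1608 Pdgfb, Pdgfd and Pdgfrb stood at 0.00972, 0.0834 and 0.0407 FPKM. Adding 1 FPKM holds differences between such low values near 0, so the value of Normal Ms1608 rests on the added 1 FPKM. Normal Ms1535 and Ms1537 alone also lay above each MI library for Pdgfb minus Pdgfrb. Its exact permutation p was 0.1 with pseudocounts of 0.1 and 5 as well. Pdgfd minus Pdgfrb differed by -1.70 as well, but Normal Ms1608 (0.06) lay among the MI values of -0.37 to 0.95 (exact permutation p = 0.3, adjusted p = 0.5). It was -2.69 without Normal Ms1608 and -1.08 without Normal Ms1537. Pdgfa minus Pdgfra was 1.44 to 2.47 in MI and -0.19, 2.15 and 0.41 in Normal (difference 1.25, exact permutation p = 0.2, adjusted p = 0.4), and the difference was 0.76 without Normal Ms1535 and 1.93 without Normal Ms1537. Pdgfrb minus Pdgfra differed by -0.18 between the groups (exact permutation p = 0.4, adjusted p = 0.5). The other ligand pairs, Pdgfc minus Pdgfa (difference -2.78) and Pdgfd minus Pdgfb (0.001), and Pdgfc minus Pdgfra (-1.53) had exact permutation p of 0.2, 1 and 0.4. Pdgfc minus Pdgfra was -0.59 without MI Ms1537 and -0.92 without Normal Ms1608.

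Members were then set beside markers of the cells that are known to express them. Pdgfb minus the mean of the 15 pan-endothelial markers was -2.23, -3.03 and -2.40 log2 units in MI and -2.69 and -2.94 in Normal Ms1535 and Ms1537, so these 5 libraries interleaved. It was -0.67 in Normal Ms1608, where Pdgfb was near 0 and the marker mean was 0.69 log2 units. Cdh5, VE-cadherin, was at 27.6, 78.8 and 6.50 FPKM in the MI libraries and 40.3, 24.7 and 1.20 in the Normal libraries, which is the order of the libraries for Pdgfb except that MI Ms1537 and Normal Ms1535 change places. Tek, whose promoter drives the Cre, was at 2.24 to 12.2 FPKM (MI) against 0.253 to 8.29 (Normal). Pdgfra minus the mean of the 15 fibroblast markers was -3.85 to -2.81 in MI and -3.04 to -2.13 in Normal, and the groups overlapped (difference -0.62, exact permutation p = 0.2, adjusted p = 0.4). It was -0.33 without MI Ms1535 and -0.37 without Normal Ms1608. Among those markers, Col1a1, a collagen chain, was at 242, 72.7 and 20.4 FPKM in MI and 11.6, 9.52 and 3.10 in Normal, and Dcn, decorin, at 702 to 3035 FPKM and 104 to 707 FPKM.

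Of the 15 markers of pericytes and smooth muscle, 9 had a positive and 6 a negative MI minus Normal difference (median 0.13, limma), and 0 lay apart between the groups. Over all 30727 genes tested, 19661 were positive and 10962 negative, and 12.6% lay apart with MI above and 615 genes with MI below. Without Normal Ms1608, 3 of the 15 lay apart with MI below and 0 with MI above, beside 5.78% and 24.5% of all genes tested. Pdgfrb minus the mean of those 15 genes was 1.25, 2.54 and 0.02 log2 units in MI and -0.35, -0.81 and -0.06 in Normal, with no overlap (difference 1.68, exact permutation p = 0.1, the smallest possible, adjusted p = 0.4). MI Ms1608 and Normal Ms1608 were nearly level, and the difference was 1.04 without MI Ms1537. In Normal Ms1608 Pdgfrb (0.0407 FPKM) and the marker mean (0.117 log2 units) were both near 0, so the value of that library rests on the added 1 FPKM. MI Ms1608 (0.02) also lay above Normal Ms1535 and Ms1537. The exact permutation p was 0.1 with a pseudocount of 0.1 and 0.2 with a pseudocount of 5. Rgs5, a pericyte marker, was at 7.14, 3.67 and 7.09 FPKM (MI) against 20.6, 17.1 and 0.306 (Normal), and Higd1b, another, was listed at 0 in MI Ms1535 and stood at 0.0816 and 0.350 FPKM in MI Ms1537 and Ms1608, compared with 3.70 and 1.68 in Normal Ms1535 and Ms1537 and a listed 0 in Normal Ms1608. Acta2, the smooth muscle actin that myofibroblasts also make, was at 6.57, 13.6 and 2.22 FPKM (MI) against 0.789, 3.39 and 0.0834 (Normal). All 3 overlapped between the groups, and Higd1b and Acta2 were singled out after their values were seen. Cspg4, the proteoglycan NG2 of pericytes, was at 0.295, 1.85 and 0.0146 FPKM (MI) against 0.120, 0.186 and 0.0169 (Normal). Myh11, the smooth muscle myosin, was at or below 0.292 FPKM in all 6 libraries.

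**Figure D4:**
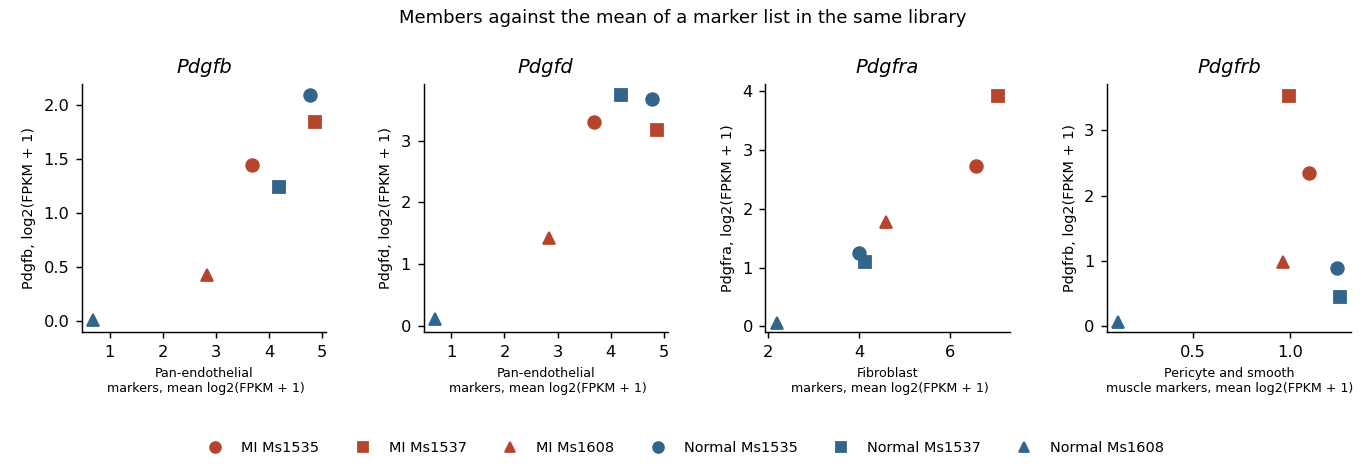
Each member's log2(FPKM + 1) against the mean log2(FPKM + 1) of a marker list in the same library, with 1 point per library. Pdgfb and Pdgfd are lowest where endothelial markers are lowest, Pdgfra is highest where fibroblast markers are highest, and Pdgfrb is higher in the 3 MI libraries than in Normal Ms1535 and Ms1537 although those have the higher pericyte and smooth muscle means.

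Blood cells can also carry PDGF. Pf4, a platelet chemokine that some macrophages also make, was at 35.1, 68.2 and 59.2 FPKM (MI) against 15.1, 30.6 and 2.27 (Normal), and the 10 platelet and megakaryocyte markers summed to 48.2 to 83.0 FPKM (MI) against 3.97 to 42.4 (Normal). Ptprc, the leukocyte antigen CD45, was at 68.7 to 77.9 FPKM in MI, 3.13 and 4.72 in Normal Ms1535 and Ms1537 and 174 in Normal Ms1608, the library with the lowest Pdgfa, Pdgfb, Pdgfd, Pdgfra and Pdgfrb. Adgre1, which encodes F4/80, was at 0.282, 1.70 and 7.21 FPKM (MI) against 0.00904 to 0.247 (Normal), and the 10 macrophage and monocyte markers summed to 818 to 2353 FPKM and 159 to 2742 FPKM. Myh6, a myosin of heart muscle, was at 0.0907 to 2.14 FPKM (MI) against 0.0136 to 0.443 (Normal). The part of these cells in the PDGF values was not tested.

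The genes whose log2(FPKM + 1) correlated best with each member over the 6 libraries were read from 9524 genes with a mean of at least 1 FPKM. With 6 points many genes come close, so these are descriptions. Pdgfb was closest to Sox17, an endothelial transcription factor (r = 0.99), followed by Sbf2 and Myo10. Pdgfrb was closest to Thbs2, the matrix protein thrombospondin 2 (r = 0.9995), which stood at 5.80, 15.3 and 1.16 FPKM (MI) against 0.926, 0.349 and 0.0231 (Normal), then to Nkiras1 and Cryl1. Pdgfra was closest to the non-coding host gene Snhg8, then to Cog7 and Zkscan3, and 486 genes had an r over 0.95 with it. Pdgfa was closest to Stxbp3a, Papd7 and Zbtb8os, and Pdgfd to Hrct1, Ndufb8 and Med28. Pdgfc was closest to Wdr33, Cox16 and Tpsb2, a mast cell tryptase at 8.20 FPKM in MI Ms1535, 1.19 in Normal Ms1608 and at or under 0.0636 in the other 4. Among the ligands, Pdgfb and Pdgfd correlated at 0.91 with each other.

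The wider PDGF pathway was read from 68 genes in 4 roles, all of them measured. By limma, 0 of the 68 passed an adjusted p of 0.05, and 7 had an unadjusted p under 0.05, all higher in MI, beside 6.42% of all genes tested and 15.4% of the 10168 genes. Groups lay apart with MI above in 15, beside 12.6% of all genes tested and 25.0% of the 10168 genes. They lay apart with MI below in 1, beside 615 of the 30727 genes tested and 0.354% of the 10168. The list was not limited to the 10168 genes, and the MI libraries alone can pass that filter, so shares of the 10168 cover an unlike set. The median difference of the list was 0.74, beside 0.04 over all genes tested and 0.78 over the 10168. Without Normal Ms1608, 18 had an unadjusted p under 0.05 with higher values in MI, where 9.96% of all genes tested and 26.9% of the 10168 genes did. Without MI Ms1535, MI Ms1537 or Normal Ms1537 it was 3, beside 4.28%, 4.76% and 3.56% of all genes tested and 6.51%, 6.65% and 8.89% of the 10168 genes. After upper-quartile, median-ratio and quantile scaling it was 2, 1 and 2, beside 1.68%, 1.59% and 1.79% of all genes tested and 3.28%, 3.06% and 3.10% of the 10168 genes. The list's count thus moved with that of all genes.

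Among proteases and processing enzymes (8 genes, median difference 1.08), Bmp1, a procollagen C-proteinase, had the lowest p, at 9.53, 10.4 and 1.64 FPKM (MI) against 0.978, 1.06 and 0.0595 (Normal) (log2 difference 2.07, limma unadjusted p = 0.0266, adjusted p = 0.649). Pcsk5, a proprotein convertase, was at 3.26, 11.4 and 1.51 FPKM (MI) against 1.58, 1.34 and 0.173 (Normal), and the groups overlapped. Plau, the urokinase that can activate PDGF-D, was under 0.25 FPKM in every library and listed at 0 in Normal Ms1608.

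Binding partners and co-receptors (9 genes, median 0.83) held the list's largest differences. Itgav, the integrin alpha-v chain, was at 110, 108 and 51.0 FPKM (MI) against 15.0, 17.0 and 2.61 (Normal), with a log2 difference of 3.08 (SE 0.76, limma unadjusted p = 0.00623, adjusted p = 0.649). Pdgfrl, which encodes a protein that resembles the outer part of the PDGF receptors and lacks a kinase domain, was at 25.1, 94.1 and 5.28 FPKM (MI) against 4.72, 2.63 and 0.273 (Normal). Its groups were apart, MI Ms1608 lying just above Normal Ms1535, with a log2 difference of 3.07 (SE 1.11, limma unadjusted p = 0.0317, adjusted p = 0.649). Its FPKM exceeded those of Pdgfra and Pdgfrb in all 6 libraries. Sparc, a matrix protein that binds PDGF-B, was at 747, 600 and 114 FPKM (MI) against 199, 201 and 22.8 (Normal), and MI Ms1608 lay below Normal Ms1535 and Ms1537.

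Adaptors and kinases (36 genes, median 0.50) gave 1 gene with an unadjusted p under 0.05, Map2k1, which encodes the kinase MEK1, at 59.9, 62.7 and 50.1 FPKM (MI) against 27.6, 31.0 and 10.2 (Normal) (log2 difference 1.43, limma unadjusted p = 0.0362, adjusted p = 0.649). Stat5a, a transcription factor that PDGF receptors can activate, was at 0.936 to 2.91 FPKM (MI) against 0.0527 to 0.498 (Normal). Crkl, an adaptor, was the gene whose MI values all lay below Normal, but it was at or below 0.0777 FPKM in every library. Attenuators (15 genes, median 1.15) gave 3. Beside 1 of 36 and 3 of 15, such a p with higher values in MI was found for 6.42% of all genes tested and 15.4% of the 10168 genes. The roles were not tested against each other. Ptpn1, the phosphatase PTP1B, was at 21.3, 27.5 and 22.5 FPKM (MI) against 3.61, 1.23 and 11.5 (Normal) (log2 difference 2.29, limma unadjusted p = 0.0155, adjusted p = 0.649). Spry2, a feedback inhibitor of receptor tyrosine kinases, was at 5.61 to 9.46 FPKM (MI) against 2.34 to 3.00 (Normal). Ptpn2, a phosphatase that acts on PDGFR-beta, was at 11.4 to 18.4 FPKM (MI) against 4.70 to 9.79 (Normal).

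**Figure D5:**
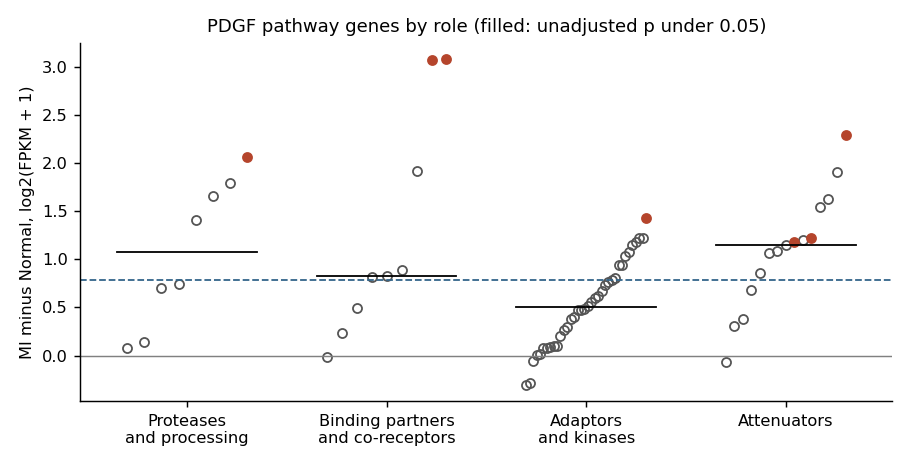
MI minus Normal in log2(FPKM + 1) for the 68 pathway genes by role, with 1 circle per gene (filled where the unadjusted p was under 0.05), a black line at the median of the role and a dashed line at the median of the 10168 genes at 1 FPKM or more in at least 3 libraries. Itgav and Pdgfrl stand highest, at 3.08 and 3.07, and the medians of the roles run from 0.50 to 1.15 around the dashed line at 0.78.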

How the data were processed

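The authors deposited 1 table of FPKM values, with 1 column for each library. Per the submitters' processing notes, STAR 2.4.2a, Cufflinks 2.2.1 and the build GRCm38 were used. Not given in the sources used here were the annotation release, the strand setting and how multi-mapping reads were counted. Per the labels' protocols, RNA was amplified by T7 transcription before library preparation, which can widen the spread between libraries.

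MI was compared with Normal by limma 3.58.1 (R 4.3.3, mean-variance trend) on log2(FPKM + 1), group as the only term, over 30727 genes above 0 in at least 1 library, with Benjamini-Hochberg adjustment at 0.05. Fold changes of low genes are understated on this scale. The script was tested on simulated data. Depth was fitted so that low FPKM values of genes with 1 transcript, times length less 175 bases, gave whole fragments: 93.2% to 94.7% lay within 0.1 of a whole number, where even spread gives 20%. The fit used the same values, and the labels' protocol gives about 10 mega (written as megabyte) reads per sample, which was not reconciled. Fragment numbers of members assume the longest transcript in GENCODE, which held 44394 of the gene identifiers.

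The members, lists and tests were chosen with earlier results of these data known. Named genes were the members, up to 3 pathway genes of lowest p per role, fixed markers and the 3 genes closest to each member. Gm24890, Higd1b, Acta2 and 3 mitochondrial genes were named outside this rule, after their values were seen. Alternatives covered pseudocount, filter, scaling, replicate block, trend, library weights and leaving out each library. A filter at 0.1 FPKM and leaving out both Ms1608 libraries were added after seeing the data.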

Additional observations from a re-analysis of the deposited data

How the results depend on the processing

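Over 17 alternatives (16 for Pdgfc and Pdgfrb, which a filter of 1 FPKM in 3 libraries removed), no member passed the limma threshold. Pdgfa, Pdgfra and Pdgfrb stayed above 0 in each, at 2.12 to 4.09, 0.98 to 3.23 and 0.81 to 3.20. Pdgfb turned to -0.48, -0.39 and -0.56 after upper-quartile, median-ratio and quantile scaling, Pdgfd to -0.70, -0.61 and -0.88, and Pdgfc to -0.058 after quantile scaling. With library weights Pdgfb and Pdgfd gave -0.24 and -0.68, without both Ms1608 libraries -0.022 and -0.47, and Pdgfd -0.10 with a pseudocount of 5. Leaving out 1 library at a time gave -0.43 to 0.61 for Pdgfb, -0.15 to 0.86 for Pdgfc and -1.07 to 0.74 for Pdgfd. Within a library, Pdgfd minus Pdgfb turned to -0.11 with a pseudocount of 5 and ran from -0.64 to 0.55 over left-out libraries, Pdgfra minus fibroblast markers turned to 0.15 with a pseudocount of 0.1 and was -1.11 with 5, and Pdgfb minus endothelial markers ran from -0.87 to 0.26. With pseudocounts of 0.1 and 5, Pdgfb minus Pdgfrb was -2.53 and -0.79 (exact permutation p = 0.1 for each). Pdgfd minus Pdgfrb was -2.45 and -0.90 (exact permutation p = 0.3 for each), and Pdgfrb minus pericyte and smooth muscle markers 2.88 and 0.75 (exact permutation p = 0.1 and 0.2). The cause of these turns was not tested. Genes called over all tested numbered 0 with a pseudocount of 5, 4 without the trend, 5 without both Ms1608 libraries (3 of them mt-Rnr2, mt-Cytb and mt-Nd1, listed at 0 in both Normal libraries left) and 0 without any 1 library. Pathway genes with an unadjusted p under 0.05 and higher values in MI numbered 12 without the trend, 12 with library weights and 24 without both Ms1608 libraries, against 7. Beside these counts stood 8.14%, 9.59% and 14.5% of all genes tested, and 18.6%, 23.7% and 35.7% of the 10168 genes at 1 FPKM or more in 3 libraries. With the replicate block 0 genes were called and no member's call changed. Each member's SE was lower with the block, from 0.61 against 1.14 for Pdgfd to 0.615 against 0.621 for Pdgfc. The labels do not say that same-numbered libraries share a mouse, so the numbers were not taken to pair the samples. Deviations of same-numbered libraries correlated at -0.05, 0.10 and 0.09, and not every library correlated best with its own number. With 3 libraries per group these values cannot decide whether samples were paired. Depth limits the values of about 1 fragment, Pdgfb in Normal Ms1608 and Pdgfc in Normal Ms1537. It also limits Pdgfd, Pdgfra and Pdgfrb in Normal Ms1608, at about 9, 9 and 8 fragments, and Pdgfc in MI Ms1537, at about 5.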
